A study of Mus musculus with 4 samples.

Results

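Plasma cell identity genes were followed on 4 Affymetrix mouse expression arrays of sorted bone marrow stem cell fractions. They were 8 genes: the surface proteins Sdc1, Tnfrsf17, Slamf7 and Tnfrsf13b, the transcription regulators Irf4, Prdm1 and Pou2af1, and the endoplasmic reticulum protein gene Mzb1. Every probe set annotated to 1 of these symbols alone was taken, which gave 12 probe sets of 45037 on the array, for 8 of the 18193 genes named there. Sdc1 had 4, Irf4 had 2 and each of the other genes had 1. The genes were chosen with the difference between these same arrays already known, so that difference is given as a description, with no test.

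The arrays measured 2 samples of long-term haematopoietic stem cells (LT-HSC), sorted as lineage-negative cells with cKit and Sca1 but without CD34 and CD135, and 2 samples of short-term haematopoietic stem cells (ST-HSC), from the same gate but with CD34. All mice had C57BL/6 as their background and lacked the Mx-Cre transgene (MxCre-), so both groups came from control animals. Each had been given poly(I:C), an RNA mimic that triggers interferon release, in 7 injections. Both LT-HSC samples, and replicate 2 of ST-HSC, were taken at an age of 7.5 weeks and 4 weeks after the final dose. Replicate 3 of ST-HSC was taken at 8.5 weeks of age and 3 weeks after that dose. The tissue label of both ST-HSC samples names LT-HSC beside a CD34+ gate, so groups were taken from the sample titles. The antibodies in the lineage cocktail and the number of mice per sample are not stated, and CD138, the protein of Sdc1, is not named in the gate. If replicates shared animals, their spread is technical only.

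Plasma cells are the end stage of the B lineage and secrete antibody at a high rate. BLIMP1 (Prdm1) and IRF4 drive their formation: BLIMP1 represses genes of the mature B cell, and IRF4 activates genes of the plasma cell, Prdm1 among them. Long-lived plasma cells lodge in the bone marrow, where ligands such as APRIL keep them alive through the receptor BCMA (Tnfrsf17). Stem cells are not known for this programme.

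On the 4 arrays, 11 of the 12 probe sets were brighter in both LT-HSC samples than in both ST-HSC samples. Over all 45037 probe sets, 23.8% had that order. The differences of the brightest probe set of each gene lay between 2.40 for Tnfrsf13b and 6.74 for Tnfrsf17 on a log2 scale, with a median of 5.47. The median over the 12832 genes tested was -0.08. In all, 11 of the 12 probe sets were at least 2-fold higher in LT-HSC and 9 at least 10-fold, where the shares over all probe sets were 6.93% and 0.562%. Since the genes were picked on this contrast, nothing is read from those counts. Differences are LT-HSC minus ST-HSC of log2(intensity + 16) after quantile normalization. The added 16, the pseudocount, understates the fold of a gene that is dim in a group. A bulk array cannot tell a smaller number of cells of a type from less RNA per cell.

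RefSeq promoters of GRCm38.p6, from 250 bases before to 50 after the transcript start, were found for 7 of the 8 genes. Of these promoters 3 are shown: those of Tnfrsf17 and Tnfrsf13b, receptors for the same ligands with the largest and the smallest difference of the 8 genes, and that of Irf4. Capitals mark the matches to 4 short motifs searched on both strands: the octamer ATGCAAAT, which OCA-B (Pou2af1) reads together with Oct factors; the interferon response core GAAANNGAA; the composite core GGAANNGAA of Ets and IRF factors; and TATAAA. The cores of the interferon response and the composite motif can overlap each other.
Tnfrsf17 (chr16:11313559-11313858, plus strand): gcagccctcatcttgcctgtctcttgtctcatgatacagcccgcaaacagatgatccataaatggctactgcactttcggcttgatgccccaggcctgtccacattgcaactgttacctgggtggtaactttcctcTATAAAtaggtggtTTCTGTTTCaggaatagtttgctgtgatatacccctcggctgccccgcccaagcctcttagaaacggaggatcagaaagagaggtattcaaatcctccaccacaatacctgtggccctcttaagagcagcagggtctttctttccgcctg
Tnfrsf13b (chr11:61126505-61126804, plus strand): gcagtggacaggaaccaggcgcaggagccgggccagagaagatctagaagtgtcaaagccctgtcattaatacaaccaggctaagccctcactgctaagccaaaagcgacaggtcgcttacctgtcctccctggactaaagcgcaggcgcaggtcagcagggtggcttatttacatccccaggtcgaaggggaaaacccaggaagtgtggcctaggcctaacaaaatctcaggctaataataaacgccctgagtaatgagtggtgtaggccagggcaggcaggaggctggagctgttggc
Irf4 (chr13:30748983-30749282, plus strand): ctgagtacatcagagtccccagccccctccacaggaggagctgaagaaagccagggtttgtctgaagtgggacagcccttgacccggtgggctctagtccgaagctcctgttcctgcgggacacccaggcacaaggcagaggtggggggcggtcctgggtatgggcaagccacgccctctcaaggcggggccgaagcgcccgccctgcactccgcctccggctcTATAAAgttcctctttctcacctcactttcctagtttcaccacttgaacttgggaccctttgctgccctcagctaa

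The Tnfrsf17 window held the interferon response core on the minus strand and TATAAA on the plus strand, and the Irf4 window held TATAAA. None of the 4 motifs was in the other 5 windows (0 of 7 held the octamer). Each of the 7 genes had 1 window, and other starts were not searched. The windows of Tnfrsf17, Tnfrsf13b, Slamf7 and Prdm1 lay wholly inside their loci, so their starts were not at the outer end of the locus. The Tnfrsf17 and Tnfrsf13b loci begin at 11313232 and 61126283. The Slamf7 window (chr1:171648950-171649249, minus strand) lay in a locus that ends at 171653037. The Prdm1 window (chr10:44458699-44458998, minus strand) lay in a locus that ends at 44528558. Of 32544 distinct promoter windows of this length, 1.75% held the octamer, 8.53% the interferon response core, 8.22% the composite core and 13.6% TATAAA. A match is a run of letters and not a site shown to be used.

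Sdc1 encodes syndecan-1 (CD138), the heparan sulphate proteoglycan by which plasma cells are sorted, and lies at chr12:8771396-8793716 (GRCm38.p6, as for all genes here). Probe set 1437279_x_at read 5728 and 5677 on the LT-HSC arrays, against 113 and 104 on the ST-HSC arrays. Its log2 means were 12.35 ± 0.01 in LT-HSC and 6.89 ± 0.06 in ST-HSC (SD, n = 2 each), a difference of 5.46 or 43.9-fold. The x in the name of this probe set marks one whose probes may also bind other transcripts. Probe set 1415943_at read 949.8 and 1008 on the LT-HSC arrays, against 26.7 and 36.2 on the ST-HSC arrays, and probe set 1415944_at read 1118 and 916 on the LT-HSC arrays, against 32.9 and 21.5 on the ST-HSC arrays. These were 20.5-fold and 24.2-fold higher in LT-HSC, with no overlap between the groups. The fourth, 1448158_at, read 2.60 and 21.3 on the LT-HSC arrays, against 6.23 and 15.8 on the ST-HSC arrays. It was dim on every array, its groups overlapped, and it was the only one of the 12 that did not pass the brightness filter, so the Sdc1 result stands on 3 of 4 probe sets.

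Tnfrsf17 encodes BCMA, a receptor for APRIL and BAFF that marrow plasma cells need to survive, and lies at chr16:11313232-11320074. Its probe set read 4562 and 4575 on the LT-HSC arrays, against 36.3 and 15.2 on the ST-HSC arrays. The LT-HSC pair differed by 0.02 on the log2 scale and the ST-HSC pair by 0.71, both small beside the difference of 6.74 between the groups (107-fold). Among the 12832 genes tested, its difference ranked 13 from the top.

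Tnfrsf13b encodes TACI, the second receptor that binds both APRIL and BAFF, which mature B cells carry as well (chr11:61126283-61153170). It read 2019 and 1887 on the LT-HSC arrays, against 391 and 275 on the ST-HSC arrays. Its log2 means were 10.81 ± 0.04 in LT-HSC and 8.41 ± 0.31 in ST-HSC (SD, n = 2 each), so the difference was 2.40 or 5.28-fold. The groups did not overlap, yet TACI differed least among the 8 genes by its brightest probe set. It was also the member whose ST-HSC signal stood highest within its arrays, at or above the 87th percentile of all probe sets.

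Slamf7 encodes a SLAM family receptor (CS1, also called CRACC) found on plasma cells and natural killer cells, at chr1:171632403-171653037. Its probe set read 715 and 719 on the LT-HSC arrays, against 10.3 and 11.0 on the ST-HSC arrays. Both pairs were close, within 0.03 and 0.01 on the log2 scale, and the groups lay 4.81 apart (28.1-fold). The ST-HSC values were under the array medians, at the 25.3rd and 24.9th percentile, so the fold depends on the pseudocount: it was 6.08 on the log2 scale with a pseudocount of 1 and 3.38 with 64.

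**Figure D1:**
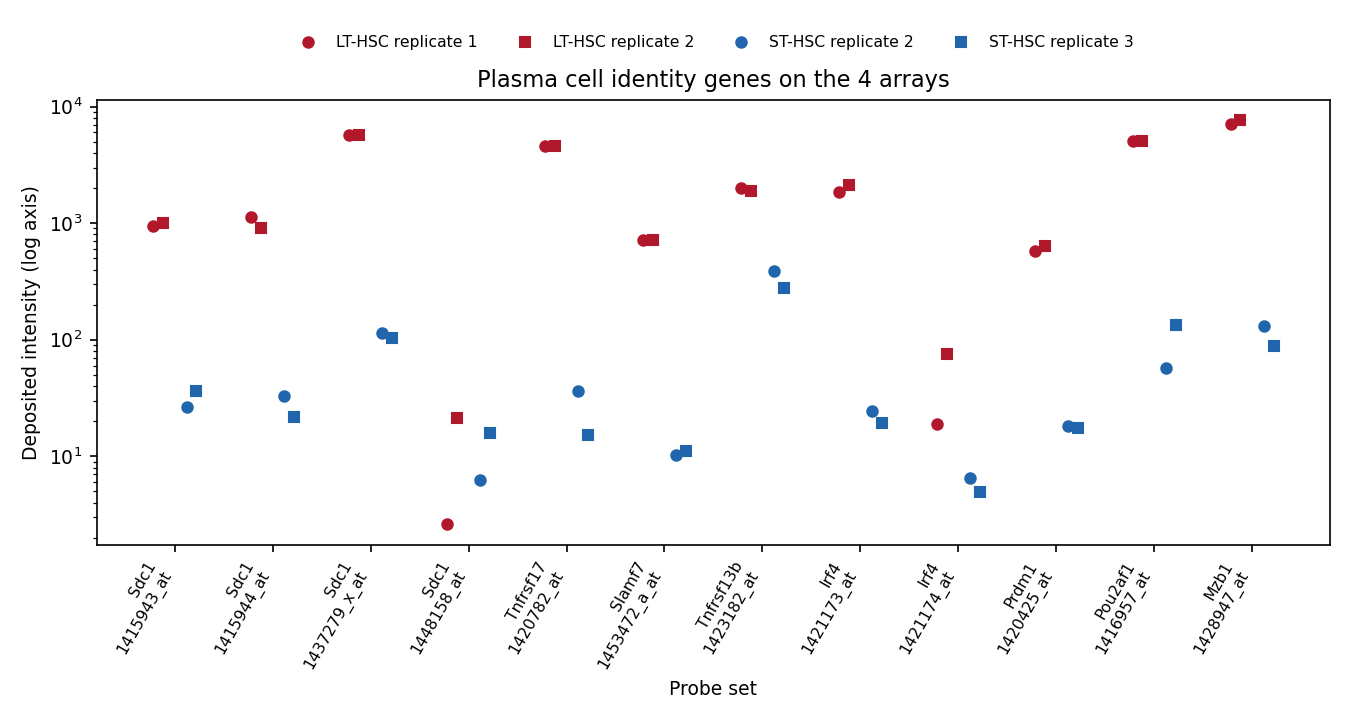
Deposited intensity (log axis) of the 12 probe sets on each array, with LT-HSC in red and ST-HSC in blue and 1 symbol per replicate. In 11 probe sets both red symbols lie above both blue ones, and in 1448158_at of Sdc1 they mix.

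Irf4 encodes IRF4, the interferon regulatory factor needed to form and to keep plasma cells, at chr13:30749233-30766981. Probe set 1421173_at read 1856 and 2114 on the LT-HSC arrays, against 24.6 and 19.1 on the ST-HSC arrays, a difference of 5.67 or 50.9-fold. The second probe set, 1421174_at, read 18.9 and 75.3 on the LT-HSC arrays, against 6.51 and 4.97 on the ST-HSC arrays. Its groups did not overlap, but its LT-HSC pair differed by 1.09, and its difference of 1.5 became 2.06 with LT-HSC replicate 2 alone and 0.93 with replicate 1 alone. The 2 probe sets therefore gave the same direction at very different sizes.

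Prdm1 encodes BLIMP1, the zinc finger repressor that commits B cells to antibody secretion, at chr10:44437174-44528558. It read 581.5 and 631.5 on the LT-HSC arrays, against 18 and 17.3 on the ST-HSC arrays. The log2 means were 9.26 ± 0.10 in LT-HSC and 5.02 ± 0.04 in ST-HSC (SD, n = 2 each), which is 4.24 apart or 18.9-fold. Pou2af1 encodes OCA-B, a coactivator of octamer factors needed for germinal centres, at chr9:51213690-51240079. It read 5018 and 5041 on the LT-HSC arrays, against 57.6 and 135 on the ST-HSC arrays. The difference was 5.49 (44.8-fold), and the ST-HSC pair lay 1.21 apart, the widest pair among the members that passed the filter. The difference was 6.15 against ST-HSC replicate 2 alone and 4.98 against replicate 3 alone.

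Mzb1 encodes a small protein of the endoplasmic reticulum that helps antibody chains fold and leave the cell, and is found in marginal zone B cells, plasma cells and plasmacytoid dendritic cells (chr18:35647265-35650266). It read 7151 and 7649 on the LT-HSC arrays, against 131 and 89.0 on the ST-HSC arrays. The log2 means were 12.76 ± 0.09 in LT-HSC and 6.89 ± 0.22 in ST-HSC (SD, n = 2 each), a difference of 5.87 or 58.6-fold.

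The spread within the groups is given beside that of all tested probe sets, which were not matched to the members in brightness. Whether the members varied less than other probe sets of like brightness was not tested. Over the 11 probe sets that passed the filter, the LT-HSC pair differed by a median of 0.12, against 0.26 over all tested probe sets, and the ST-HSC pair by 0.31, against 0.39. After normalization, 9 of the 11 were higher on LT-HSC replicate 2 than on replicate 1, and 8 were higher on ST-HSC replicate 2 than on replicate 3. On both LT-HSC arrays 10 of the 12 probe sets were among the brightest 10% of the array. On both ST-HSC arrays none of the 12 was (0), and 4 were above the array median. Summed over the brightest probe set of each gene, the members read 27631 and 28294 on the LT-HSC arrays and 782 and 666 on the ST-HSC arrays.

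To pass the brightness filter, a mean over the 4 arrays had to be above the 40th percentile, 5.03 on the log2 scale. Of the 11 that passed, 3 (Slamf7, Prdm1 and 1421174_at of Irf4) had an ST-HSC mean at or below that level and passed through LT-HSC alone. In the fit over all 27022 tested probe sets, which called 6.72% higher in LT-HSC, 10 of the 11 were called higher and 1421174_at of Irf4 was not. Again nothing is read from that count.

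The direction held in each array left out and each setting tried for the 11 probe sets that passed. Against ST-HSC replicate 2 alone, which shared age and interval with the LT-HSC mice, the differences of the 8 brightest probe sets ran from 2.20 for Tnfrsf13b to 6.46 for Tnfrsf17. Against ST-HSC replicate 3 alone they ran from 2.70 to 7.15 for the same genes. A pseudocount of 64 gave the lowest value over the settings for 10 of these 11 probe sets, the exception being Tnfrsf13b.

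**Figure D2:**
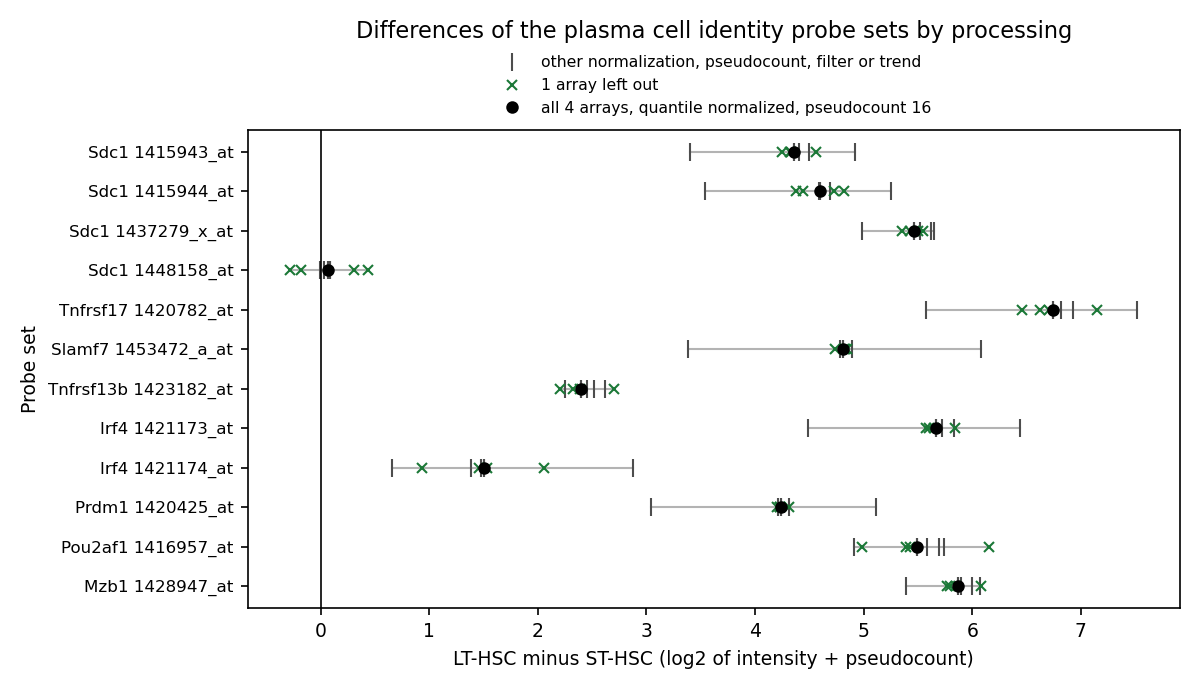
LT-HSC minus ST-HSC on the log2(intensity + pseudocount) scale for the 12 probe sets; black points are the values with all 4 arrays, green crosses leave 1 array out, bars are other settings, and grey lines join the extremes. All values lie above 0 except some of 1448158_at of Sdc1, which run from -0.28 to 0.44.

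Other genes of the plasma cell programme were described from a list of 25, of which 24 had a probe set of their own and were tested (Cd38 was not analysed here). In limma, 20 rose in LT-HSC, 0 fell and 4 did not pass, with a median difference of 2.23. Over all genes, 7.92% were called higher and 6.41% lower. Xbp1, the factor that expands the secretory apparatus, read 9950 and 9826 on the LT-HSC arrays, against 570.4 and 775 on the ST-HSC arrays (difference 3.79, SE 0.19, adjusted p = 0.000202). Jchain, which joins IgA and IgM into polymers, rose by 3.32 (SE 0.33, adjusted p = 0.00234). Derl3, which helps to return misfolded proteins from the endoplasmic reticulum, rose by 6.59, and Tent5c, a poly(A) polymerase that stabilises immunoglobulin mRNA, by 6.15. Edem1 and Txndc5, which act on folding proteins in the endoplasmic reticulum, rose by 4.82 and 4.19. Eaf2, a partner of the elongation factor ELL, rose by 5.52, and Creld2, a protein of the endoplasmic reticulum, by 3.50. Cd28, a costimulatory receptor also found on plasma cells, read 362.5 and 419 on the LT-HSC arrays, against 10.5 and 11.3 on the ST-HSC arrays and rose by 3.99. Il6ra (-0.42), Cxcr4 (0.63), Itga4 (0.28) and Mcl1 (1.23, adjusted p = 0.0675), named for plasma cell homing and survival, did not pass on their brightest probe set, although 3 other probe sets of Mcl1 did, in the same direction. Without LT-HSC replicate 1 or 2, 10 or 9 genes were called, and 9 kept the call whichever array was left out: Xbp1, Jchain, Cd28, Eaf2, Tent5c, Txndc5, Derl3, Creld2 and Edem1.

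Of the immunoglobulin chains, 5 of the 12 listed had a probe set of their own. Ighg3 read 8360 and 8440 on the LT-HSC arrays, against 14.5 and 30.0 on the ST-HSC arrays, and Igha read 13719 and 14222 on the LT-HSC arrays, against 19.5 and 399 on the ST-HSC arrays. Ighm, the heavy chain of IgM, read 9121 and 10172 on the LT-HSC arrays, against 8373 and 7448 on the ST-HSC arrays on its brightest probe set and did not pass (0.20, adjusted p = 0.248), while 7 further probe sets of it were called higher. Of the list 3 were called higher (Iglv1, a light chain segment, was the third, at 5.75) and 1 lower. The lower one, Igk on its brightest probe set, was dim. It read 12 and 21 on the LT-HSC arrays, below their medians of 19.1 and 28.3, against 69.7 and 110.7 on the ST-HSC arrays. Of its other probe sets 2 were called in the opposite direction. With either ST-HSC array left out another probe set of Igk became the brightest, at differences of 1.9 and 1.84. The calls of Igha and Iglv1 ended with either LT-HSC array left out. Their differences were then 6.8 and 6.84 for Igha and 5.71 and 5.77 for Iglv1. Iglv1 lay at 8.05 or 3.50 with 1 ST-HSC array left out. The call of Ighg3 held whichever array was left out.

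BCMA and TACI signal to NF-kappa-B through TRAF adaptors. Of 15 genes of the BAFF and APRIL pathway, 11 had a probe set of their own, 5 were called higher in LT-HSC, 0 lower, and 6 did not pass (median 0.73). Tnfrsf13c, the BAFF receptor of B cells, read 969 and 981 on the LT-HSC arrays, against 96.9 and 139.5 on the ST-HSC arrays (difference 2.92, SE 0.32, adjusted p = 0.00359). Birc3 (1.62), Traf1 (1.97), Nfkb2 (1.99) and Relb (1.22), an inhibitor of apoptosis, an adaptor and 2 subunits of NF-kappa-B, were also higher. The other tested probe set of Birc3 was not called. Tnfsf13b, the ligand BAFF, was dim and did not pass (-0.57, adjusted p = 0.401), and Tnfsf13, the ligand APRIL, was not analysed here. None of the 5 calls held without LT-HSC replicate 1 or 2. The differences were then 2.86 and 2.89 for Tnfrsf13c, 1.74 and 1.44 for Birc3, and 1.9 and 2.05 for Traf1. Those of Nfkb2 were 1.91 and 2.04, and those of Relb 1.2 and 1.25.

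The listed B cell genes did not move as 1 group. Of 17 listed, 11 were tested: 4 rose, 2 fell and 5 did not pass in LT-HSC, with a median of 0.82. Ms4a1 (CD20) read 954 and 1048 on the LT-HSC arrays, against 15.3 and 21.9 on the ST-HSC arrays, Cd79a read 1013 and 1060.2 on the LT-HSC arrays, against 8.57 and 58.2 on the ST-HSC arrays, and Cd79b rose by 3.39. These 3 calls held whichever array was left out. Cxcr5, a chemokine receptor of follicular B cells, rose by 1.25 (adjusted p = 0.0485), and 3 of the 4 left-out arrays ended that call. Myc, which BLIMP1 is known to repress, fell by 1.86 (adjusted p = 0.0154). Bach2, a B cell repressor that plasma cells turn off, fell by 1.47 (adjusted p = 0.0310), a call that none of its other tested probe sets gave. Neither call held when either LT-HSC array was left out, at -1.98 and -1.67 for Myc and -1.29 and -1.65 for Bach2. Pax5, the factor that holds B cell identity, was dim and did not pass (0.82, adjusted p = 0.275). Bcl6 (-0.44), Ciita (0.41), Spib (0.83) and Ebf1 (0.65) did not pass either.

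Most partners of the 3 transcription regulators did not pass: of 13 tested, 2 were called higher, 1 lower and 10 did not pass (median -0.27). Ikzf3 (Aiolos), a lymphoid zinc finger factor, read 1432 and 1334 on the LT-HSC arrays, against 12.1 and 6.46 on the ST-HSC arrays (difference 5.76, SE 0.31, adjusted p = 0.000270). That was 1 of its 3 probe sets, of which 2 were tested, and the other tested one was not called. Ets1 rose by 1.73 on its brightest probe set, and none of its other tested probe sets was called (4 were tested). Hdac2, a histone deacetylase, fell by 1.54. Spi1 (PU.1), which binds DNA together with IRF4, did not pass (-0.99, SE 0.34, adjusted p = 0.106). Among 7 tested SLAM family genes Slamf9 alone was called on its brightest probe set, at 503.5 and 615.9 on the LT-HSC arrays, against 19.3 and 10.9 on the ST-HSC arrays (4.27, SE 0.33, adjusted p = 0.000867), while Slamf1 (CD150, a stem cell marker) lay at -0.25 and Cd48 at -1.80 (adjusted p = 0.0602). Cd244a did not pass on its brightest probe set (-0.40, adjusted p = 0.492), but its other one was called lower. Of 9 tested genes of other syndecans and heparan sulphate synthesis, Sdc3 (2.30) and Sdc4 (1.85) were higher and 7 did not pass. Neither syndecan call, nor those of Ets1 and Hdac2, held when either LT-HSC array was left out. The differences were then 2.25 and 2.33 for Sdc3 and 1.81 and 1.89 for Sdc4. Those of Ets1 were 1.88 and 1.53, and those of Hdac2 -1.52 and -1.49.

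**Figure D3:**
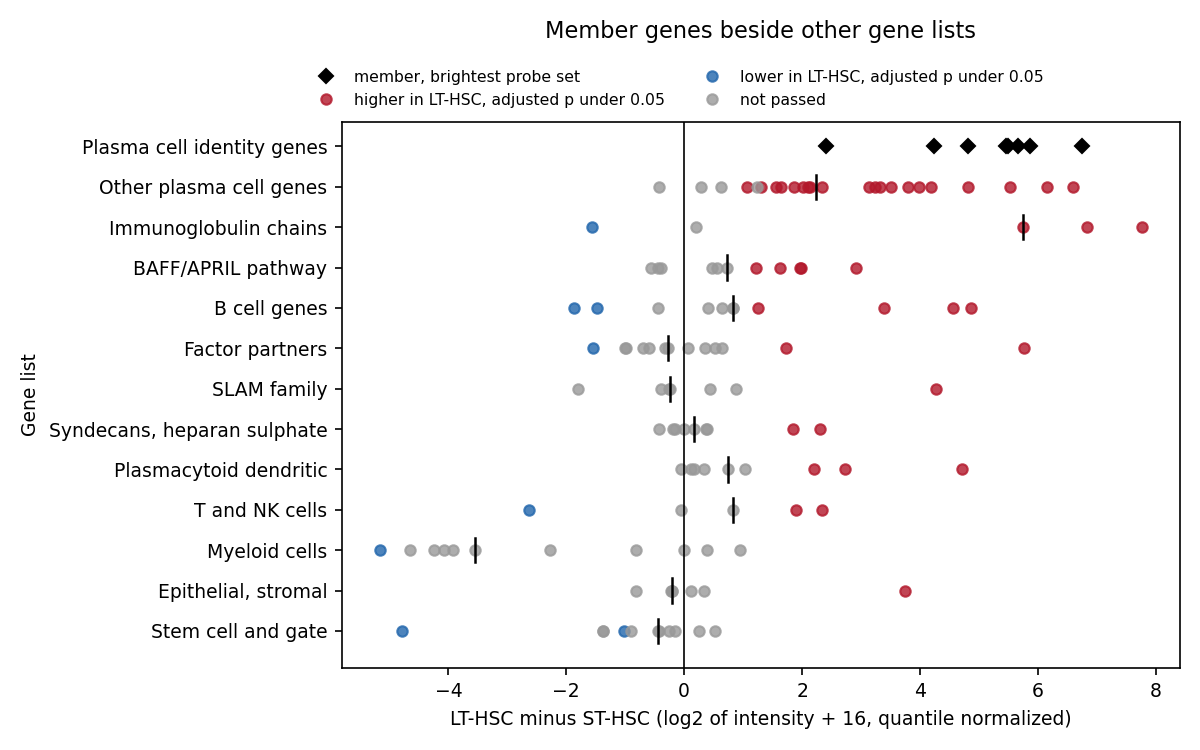
LT-HSC minus ST-HSC of the brightest probe set of each gene, with the 8 members as diamonds in the top row and 12 other gene lists below; colours give the limma call at an adjusted p under 0.05 and black strokes the list medians. The members lie between 2.40 and 6.74, and the other plasma cell genes have a median of 2.23.

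Markers of other cells were set beside these values. Mzb1 is also made by plasmacytoid dendritic cells. Of 9 tested markers of those cells 3 rose, none fell and 6 did not pass on their brightest probe set. Those that rose were Ly6d, which early B cells share (4.71), Ccr9 (2.73) and Tcf4 (2.20). The other tested probe set of Ccr9 was not called, and a second probe set of Cox6a2 was called higher. Siglech, a defining marker, was below the median of all 4 arrays at 16.2 and 15.2 on the LT-HSC arrays, against 23.6 and 16 on the ST-HSC arrays. The Tcf4 call was lost with either LT-HSC array left out, at differences of 2.11 and 2.21. Its difference became 1.32 against ST-HSC replicate 2 alone and 3.20 against replicate 3 alone. The summed intensity of all 10 listed, 1 of them too dim to be tested, was 5118 and 4892 on the LT-HSC arrays and 1517 and 713 on the ST-HSC arrays. Tcf4 (3144.8 and 2871.9) and Ly6d (1135.3 and 1200.4) made up most of the LT-HSC sums. On the ST-HSC arrays Tcf4 read 1019.5 and 293.3, and Ly6d 25.1 and 31.3. Of 5 tested T and NK cell markers Cd3g (1.90) and Gzma (2.33) were higher and Nkg7 was lower (-2.63). Over the 9 with a probe set, tested or not, the sums were 400.4 and 710.5 on the LT-HSC arrays and 1387 and 1521 on the ST-HSC arrays. Nkg7 alone made up most of the ST-HSC sums, at 1277.4 and 1404.5, against 136.8 and 312.8 on the LT-HSC arrays. The sums therefore do not give the direction of the other markers. Cd3e, a chain of the T cell receptor complex, was too dim to be tested, at 31.7 and 20.8 on the LT-HSC arrays and 6.8 and 2.35 on the ST-HSC arrays. With LT-HSC replicate 1 left out Cd3g (1.82) and Nkg7 (-2.09) no longer passed, and with replicate 2 left out Gzma (1.91) no longer passed. Of 7 tested epithelial and stromal markers Epcam was higher (3.74), and 6 did not pass. Without LT-HSC replicate 1 the other tested probe set of Epcam became the brightest, at 1.44, and was not called. Over all 10 listed, 3 of them too dim to be tested, the sums were 1348 and 1037 on the LT-HSC arrays and 1423 and 891 on the ST-HSC arrays. Col1a1 read 16.5 and 16.6 on the LT-HSC arrays, against 15.6 and 33.4 on the ST-HSC arrays. Of 11 tested myeloid markers Mpo was lower (-5.16), and their sums were 4922 and 1189 on the LT-HSC arrays and 6754 and 52847 on the ST-HSC arrays, so ST-HSC replicate 3 stood apart. S100a8, a neutrophil protein, did not pass (-4.65, adjusted p = 0.0972), at 812.7 and 18.6 on the LT-HSC arrays and 1177.9 and 11465.3 on the ST-HSC arrays. Pou2af1 alone among the members was more than 1 unit higher on that array than on ST-HSC replicate 2. The part of these cells in the members' values was not tested.

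Among the stem cell and gate genes, 11 were tested, of which none rose and 2 fell in LT-HSC. Cd34, on which the gates differ, read 18.3 and 23.5 on the LT-HSC arrays, against 841 and 1142 on the ST-HSC arrays. Gata2, a factor of stem and progenitor cells, did not pass on its brightest probe set (-1.38, adjusted p = 0.0802), but its other one was called lower. Procr (0.52), Mecom (-0.43) and Hlf (-0.44), markers of stem cells, did not pass. Procr read 1375.9 and 995.4 on the LT-HSC arrays, and 1170.8 and 457.5 on the ST-HSC arrays. The second gene called lower was Kit, the receptor of the gate (-1.02, adjusted p = 0.0498), whose other tested probe set was not called. Leaving out either LT-HSC array ended that call, at differences of -1.03 and -0.97.

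The genes most like the members were found by the distance between profiles over the 4 arrays, each centred on its own mean, from the median profile of the members' brightest probe sets. With 4 points the likeness is mainly that of being high in LT-HSC by a like amount. The nearest 10 were Dbndd2 (distance 0.17), Fcrla, Kcnmb4os2, Il1f10, Csf1, Il13ra1, Eaf2, Bhlha15, Cacna1h and Pacsin3 (0.47). Of the members themselves Sdc1 lay nearest to the profile (0.14), and Tnfrsf13b farthest (3.02). Fcrla, a B cell protein related to Fc receptors, read 1448 and 1399 on the LT-HSC arrays, against 16.5 and 27.3 on the ST-HSC arrays, and all 3 of its probe sets were at least 2-fold higher. Bhlha15 (MIST1), a factor of secretory cells, read 1443 and 1661 on the LT-HSC arrays, against 28.3 and 20.0 on the ST-HSC arrays. The probe sets of some neighbours differed: of the tested probe sets of Dbndd2, Csf1 and Pacsin3, 1 of 2, 2 of 4 and 1 of 3 were at least 2-fold higher.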

How the data were processed

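RNA of sorted cells was, per the labels' protocols, isolated using Trizol, then biotin-labelled after an amplification of 2 rounds. The values deposited by the authors are linear intensities for each probe set of each array. Which software made them, and whether arrays were scaled, is not given in the sources used here. Of 45101 probe sets, 64 controls were left out. Array medians ran from 19.1 to 28.3, so log2(intensity + 16) was quantile normalized. The number of arrays limits the precision.

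Genes were named through the platform annotation (34958 probe sets with 1 symbol, 932 with several, 9211 unnamed here), with RefSeq GRCm38.p6 for loci. LT-HSC and ST-HSC were compared over 27022 probe sets with limma 3.58.1 under R 4.3.3, using lmFit and eBayes(trend = TRUE). Benjamini-Hochberg adjustment covered every tested probe set, and the threshold was 0.05. A gene was represented by its brightest tested probe set. SE is limma's moderated standard error. The procedure was tested on simulated data.

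The members and lists were chosen with earlier results of these data known, so their counts are no independent evidence. Named were all members, up to 6 called genes of each list and direction by smallest p, set defining markers, and the 10 genes nearest in profile. Derl3, Cd28, Cd244a, Cox6a2, Gata2, Procr, Mecom, Hlf, Il6ra, Cxcr4, Itga4, Mcl1, Bcl6, Ciita, Spib, Ebf1, Spi1, Slamf1, Cd48, Igk and Ighm lie outside that rule and were picked with their values in view. Alternatives were other normalizations, pseudocounts, filters, spread models and probe set rules, and each array left out. A further part of the genotype, shared by all 4 samples, is not reported here.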

Additional observations from a re-analysis of the deposited data

How the results depend on the processing

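No paired analysis was possible because the groups share only 1 replicate number, 2. With 1 array left out, the lone sample of its group was taken to vary like the other group. Over the 10 other settings per probe set, the 11 member probe sets that passed the filter stayed higher in LT-HSC. For 1448158_at of Sdc1, at 0.07 with all 4 arrays, the direction turned with no normalization between arrays (-0.01), without LT-HSC replicate 2 (-0.28) and without ST-HSC replicate 2 (-0.18), with 0.44 as the highest value; the cause was not tested. Tnfrsf17 ran from 5.57 with a pseudocount of 64 to 7.52 with 1, and Prdm1 from 3.04 to 5.11. Counts of calls depended on which pair supplied the spread. With an LT-HSC array left out it was the ST-HSC pair alone. That pair was the wider one, with a median difference of 0.39 against 0.26 over all tested probe sets. A call lost in that way does not by itself show a smaller difference. Of 3296 probe sets called with 4 arrays, leaving out 1 array gave 415 to 8774; the lowest counts were without LT-HSC replicates 1 (415) and 2 (426). Called genes with 1 array left out numbered 9 to 22 of the other plasma cell list, 0 to 7 of the BAFF and APRIL list, 3 to 6 of the B cell list, 1 to 6 of the factor partners, 1 to 3 of the SLAM family, 0 to 2 of the syndecan list, 1 to 5 of the immunoglobulin list, 2 to 5 of the plasmacytoid dendritic list, 1 to 3 of the T and NK list, 1 to 8 of the myeloid list, 0 to 2 of the epithelial and stromal list and 1 to 6 of the stem cell list. With no normalization, 2 SLAM, 2 myeloid and 1 stem cell gene were called. With arrays centred on their medians, 2 SLAM and 3 myeloid genes were called. Only 1 stem cell gene was called with a pseudocount of 1, with 64, with no filter and with no intensity trend, each time 1. With probe sets averaged, 3 SLAM genes and 3 stem cell genes were called. The factor partners then gave 1 higher and 2 lower, and the B cell list 4 higher and 1 lower. The immunoglobulin list gave 4 higher and 0 lower. Dim ST-HSC signals limit how far the size of a member's fold can be read.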
